A study of Mus musculus with 5 samples.

Results

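Tissue factor, the controls of coagulation and the plasminogen activators were described in sorted fat progenitors through 9 genes: F3, Tfpi, Tfpi2, Thbd, Procr, Plat, Plau, Plaur and Serpine2. They were found by gene symbol, and each had 1 row among the 54532 genes of the table of read counts. All 9 passed the filter on low counts, which kept 15920 genes. F3 is a special case, because it encodes CD142, on which the cells were sorted.

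Blood clotting is started outside the vessel by tissue factor, a membrane protein that binds factor VII and turns it into an active protease complex. Tissue factor pathway inhibitor, from Tfpi, shuts this complex down. Thrombomodulin, from Thbd, captures thrombin and with the endothelial protein C receptor, from Procr, directs it to activate protein C, an anticoagulant. Clots and matrix are dissolved by plasmin, which tissue-type and urokinase-type plasminogen activators, from Plat and Plau, cut from plasminogen; the urokinase receptor, from Plaur, holds urokinase at the cell surface, and the serpin protease nexin 1, from Serpine2, inhibits both activators and thrombin. In mouse fat, CD142 marks the stromal cells termed Aregs, described as able to hold back the formation of fat cells, and CD26, encoded by Dpp4, marks interstitial progenitors.

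RNA of stromal vascular cells was sequenced after sorting from subcutaneous (SAT) and visceral (VAT) fat of 30 wild-type mice on a chow diet, aged 12 to 14 weeks. In every group, cells positive for CD31 (endothelial) or CD45 (immune) had been gated out. Going by the titles, SAT gave 1 library of CD26+CD142- and 1 of CD26-CD142+ cells, and VAT gave 2 of CD26-CD142+ and 1 of CD26+CD142+ cells. The labels give no strain, sex or visceral site, and they do not say how the mice were divided, so the p-values measure only the spread between these libraries, which may be technical. Libraries are told apart here by depot and by the last digit of the library name. The SAT labels conflict: the title of SAT library 1 gives CD26+CD142- and its name CD142, whereas the title of SAT library 2 gives CD26-CD142+ and its name CD26. No library was reassigned.

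Total counts ran from 21706345 to 25357403. All 11 pan-mesenchymal markers, among them Pdgfra, Dcn and Col1a1, were detected in each library, and their summed level ran from 25340 to 78420 CPM (each count over its library's total, on the usual scale of CPM, with totals adjusted by edgeR's TMM factors). Pecam1, the gene of CD31, was at 2.32 to 7.25 CPM, and Ptprc, the gene of CD45, at 0.183 to 0.988 CPM. Mitochondrially encoded genes took 2.83% and 4.33% of counts in the libraries numbered 1 and 0.554% to 0.633% in those numbered 2.

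Promoter windows of 6 of the 9 genes were matched in RefSeq (build GRCm38.p6), and windows for Thbd, Plat and Plau were not analysed here. The 250 bases before each annotated start were searched on both strands for the AP-1 motif TGACTCA and the SP1 motif GGGCGG. F3, Procr and Plaur each hold 1 match to the AP-1 motif, which is present in 4.46% of the 32851 windows of this length in the table. These 3 windows are shown because the match is a feature that the choice of genes did not use. They lie on the plus strand at chr3:121723287-121723536 for F3, at chr2:155750967-155751216 for Procr and at chr7:24462233-24462482 for Plaur. Capitals mark the AP-1 match, whose first printed base lies 135, 154 and 69 bases before the start that RefSeq gives and is read on the other strand in F3.
F3: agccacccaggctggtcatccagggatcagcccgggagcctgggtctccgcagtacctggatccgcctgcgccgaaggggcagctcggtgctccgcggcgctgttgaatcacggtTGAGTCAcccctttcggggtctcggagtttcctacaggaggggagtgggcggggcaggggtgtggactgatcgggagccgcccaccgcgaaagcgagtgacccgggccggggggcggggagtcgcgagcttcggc
Procr: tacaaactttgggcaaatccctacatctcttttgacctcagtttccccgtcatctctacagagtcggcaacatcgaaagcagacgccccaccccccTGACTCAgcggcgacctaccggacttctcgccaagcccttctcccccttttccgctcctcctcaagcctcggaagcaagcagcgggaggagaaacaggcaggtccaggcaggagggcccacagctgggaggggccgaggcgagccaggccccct
Plaur: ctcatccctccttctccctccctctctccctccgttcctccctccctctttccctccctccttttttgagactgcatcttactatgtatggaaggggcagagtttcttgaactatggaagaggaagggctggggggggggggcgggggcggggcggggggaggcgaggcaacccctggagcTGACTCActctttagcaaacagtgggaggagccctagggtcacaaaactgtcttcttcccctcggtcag
The SP1 motif, present in 32.7% of all windows, was found in windows of F3, Tfpi, Tfpi2, Plaur and Serpine2 and not in that of Procr. A match is a description of the letters and no evidence of binding.

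F3 (ENSMUSG00000028128, mm10 chromosome 3, 121723537 to 121735048, 6 exons in the coding model with the most) was read first, as a check of the labels. F3 was at 618 CPM in SAT library 1 and 5.32 CPM in SAT library 2, a 116-fold difference (95% counting interval 96.9 to 140). It was at 378 and 241 CPM in VAT CD26-CD142+ libraries 1 and 2 and at 99.0 CPM in the VAT CD26+CD142+ library. The order is that of the SAT library names and the opposite of the SAT titles, since the library titled CD142- had the highest level of the 5. Dpp4 was likewise at 6.57 CPM in SAT library 1 and 1006 CPM in SAT library 2. In VAT, whose titles and names are free of conflict, the level of Dpp4 was 417 CPM in the CD26+ library against 5.13 and 6.57 CPM in the others, and the library sorted for both antigens kept F3 RNA at a lower level than either library sorted for CD142 without CD26. In such pools of cells, fewer cells of a type and less RNA per cell cannot be told apart.

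**Figure D1:**
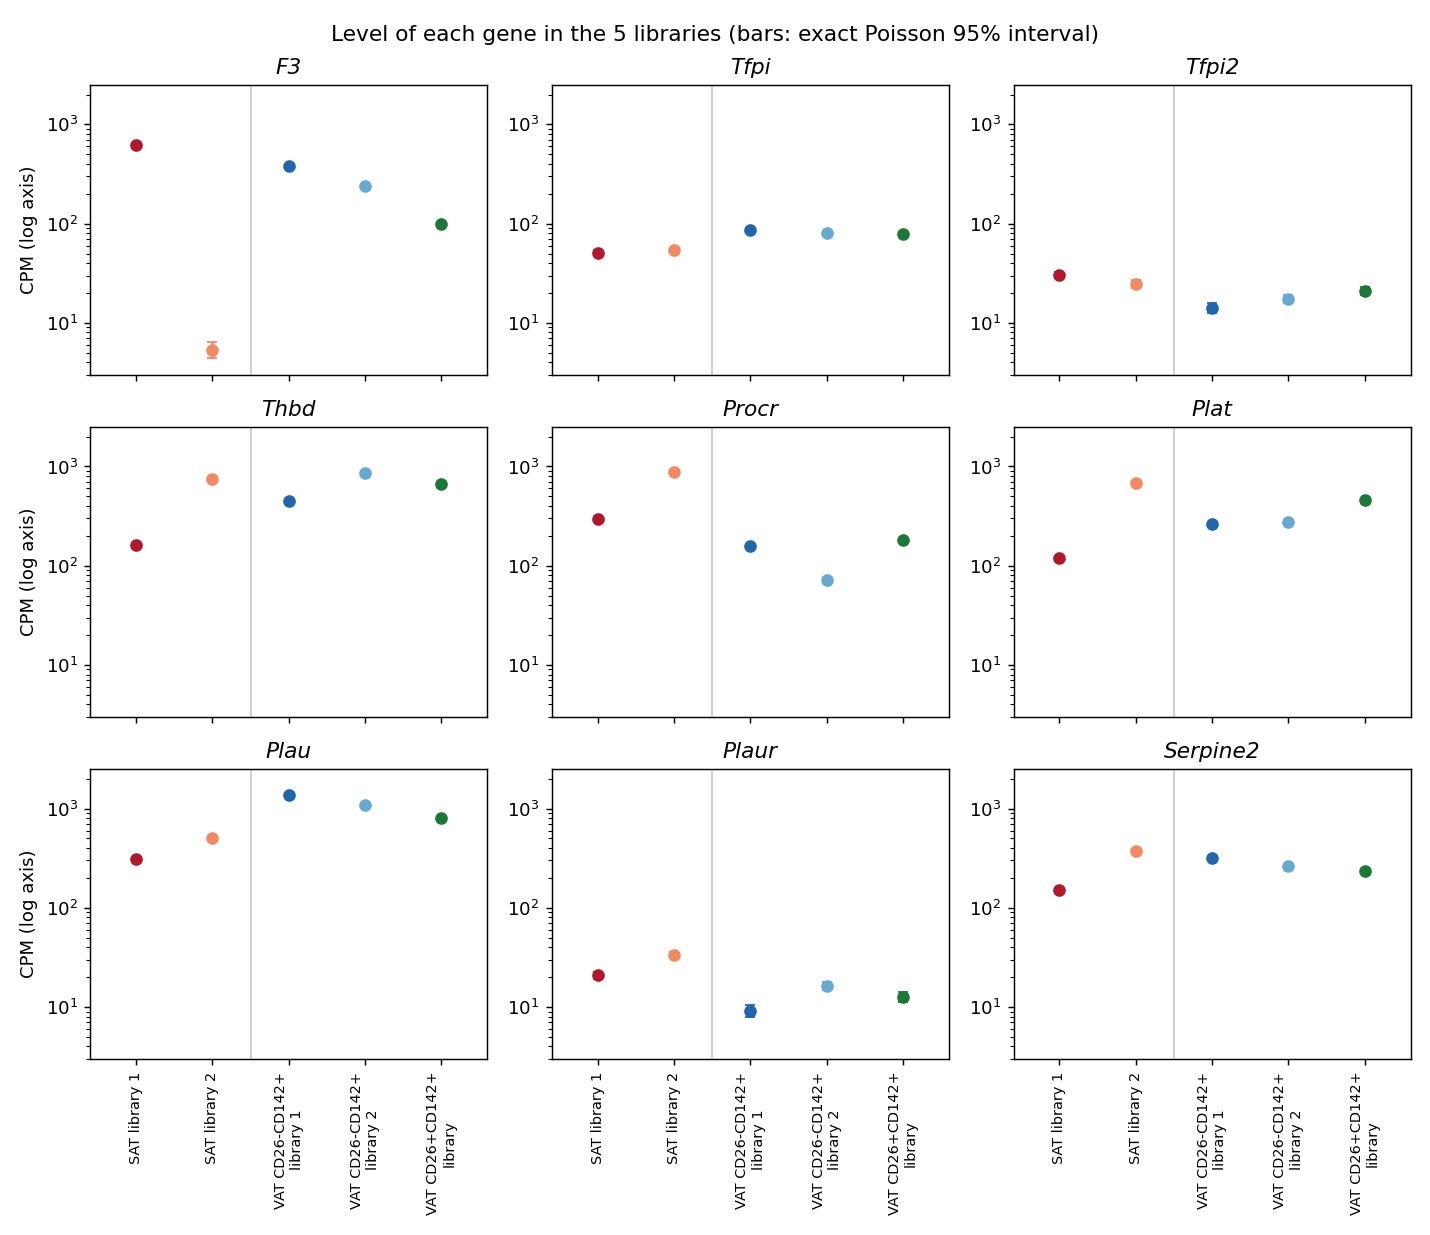
CPM of the 9 genes (log axis) in the 5 libraries, 1 panel a gene; points are single libraries, bars are exact Poisson 95% intervals and the grey line parts SAT from VAT. F3 spans from 5.32 to 618 CPM, while Tfpi stays between 51.2 and 87.1 CPM.

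The inhibitors of tissue factor varied far less than F3. Tfpi (ENSMUSG00000027082, chromosome 2, 84432855 to 84476775), whose product blocks factor Xa and the complex of tissue factor and factor VIIa, was at 51.2 and 54.1 CPM in SAT libraries 1 and 2. Its level was 87.1, 79.8 and 79.3 CPM in VAT CD26-CD142+ libraries 1 and 2 and the VAT CD26+CD142+ library. Both SAT libraries were thus below all 3 VAT libraries, and the 2 SAT libraries did not differ beyond counting error (ratio 1.06, interval 0.975 to 1.15) although F3 differed 116-fold between them.

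Tfpi2 (ENSMUSG00000029664, chromosome 6, 3962595 to 3988919) encodes a related inhibitor that is found in the matrix and acts on plasmin and other serine proteases. It went the other way by depot, with 30.5 and 24.7 CPM in SAT libraries 1 and 2 against 14.2, 17.4 and 21.0 CPM in VAT CD26-CD142+ libraries 1 and 2 and the VAT CD26+CD142+ library. The gap between the depots was narrow, from 21.0 to 24.7 CPM, and the counting intervals of these 2 libraries overlapped (19.2 to 22.9 and 22.7 to 26.9 CPM).

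Both receptors of the protein C pathway were among the more abundant of the 9 genes, and they did not share a pattern. Thbd (ENSMUSG00000074743, chromosome 2, 148404466 to 148408188, a gene of 1 exon) was lowest in SAT library 1, at 162 CPM, and at 744 CPM in SAT library 2. In VAT it was at 453 and 852 CPM in the CD26-CD142+ libraries and at 659 CPM in the CD26+CD142+ library. SAT library 1, where F3 was highest, was the library with the least Thbd. The 2 VAT CD26-CD142+ libraries carry the same label and differed 1.88-fold (1.84 to 1.93), so single-library differences of this size are within the spread of 1 group.

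Procr (ENSMUSG00000027611, chromosome 2, 155751117 to 155755471) was at 296 and 888 CPM in SAT libraries 1 and 2. It was at 160, 71.1 and 182 CPM in VAT CD26-CD142+ libraries 1 and 2 and the VAT CD26+CD142+ library. Both SAT libraries were above all VAT libraries, and within each depot the library of higher Dpp4 had the most Procr. The VAT CD26-CD142+ pair differed 2.25-fold (2.12 to 2.39) in Procr, the widest gap between these 2 libraries among the 9 genes, in the opposite direction to Thbd.

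Plat (ENSMUSG00000031538, chromosome 8, 22757727 to 22782844), the tissue-type activator, was at 120 and 677 CPM in SAT libraries 1 and 2. It was at 263 and 276 CPM in the VAT CD26-CD142+ libraries and at 458 CPM in the VAT CD26+CD142+ library. In each depot the library with high Dpp4 had more Plat RNA than the others, and the VAT CD26-CD142+ pair was close together (ratio 0.953, interval 0.919 to 0.988). The size of the gap was 5.66-fold (5.44 to 5.90) between the SAT libraries and 1.70-fold between the VAT groups.

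Plau (ENSMUSG00000021822, chromosome 14, 20836660 to 20843385), the urokinase gene, was at 311 and 510 CPM in SAT libraries 1 and 2. In VAT it was at 1379, 1095 and 796 CPM in CD26-CD142+ libraries 1 and 2 and the CD26+CD142+ library. All VAT libraries were above both SAT libraries. Plaur (ENSMUSG00000046223, chromosome 7, 24462484 to 24475968), the gene of its receptor, lay the other way, at 20.8 and 33.7 CPM in SAT libraries 1 and 2 against 9.16, 16.3 and 12.6 CPM in VAT CD26-CD142+ libraries 1 and 2 and the VAT CD26+CD142+ library. Ligand and receptor RNA thus lay on opposite sides in the 2 depots.

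Serpine2 (ENSMUSG00000026249, chromosome 1, 79794197 to 79861180), the inhibitor, was at 151 and 373 CPM in SAT libraries 1 and 2. It was at 318, 261 and 237 CPM in VAT CD26-CD142+ libraries 1 and 2 and the VAT CD26+CD142+ library. The SAT values lay on either side of the VAT range, so the depots overlapped. By its coordinates no other gene of the table overlaps any of the 9. Reads of RNA from outside the annotated genes were not checked.

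Whether the depots differ was asked with both SAT against all 3 VAT libraries, which does not use the SAT gates. In 5 of the 9 genes the SAT libraries lay outside the VAT range, with Procr, Tfpi2 and Plaur higher in both SAT libraries and Tfpi and Plau lower. Among all tested genes 19.8% were outside the VAT range in this way, 9.63% higher and 10.2% lower. None of the 9 passed edgeR's quasi-likelihood test with Benjamini-Hochberg adjustment over all tested genes, by which 0.0503% of genes were called (8 genes). At unadjusted p under 0.05 there were 5 of the 9 and 6.76% of all genes. With DESeq2 there were 2 (Procr and Plau) and 2.92% of all genes, and with limma-voom 0 of the 9.

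Procr averaged 592 ± 419 CPM over the SAT libraries (SD, n = 2) against 138 ± 58.9 CPM over the VAT libraries (SD, n = 3), which is 4.30-fold (log2 change 2.10, SE 0.62, adjusted p = 0.535, and 0.0373 with DESeq2). It was 1.09 without SAT library 2. SEs were taken from the log2 change and the F statistic. Plau averaged 411 ± 141 CPM in SAT against 1090 ± 292 CPM in VAT, for a log2 change of -1.41 (SE 0.42, adjusted p = 0.549, and 0.0292 with DESeq2). Plaur averaged 27.2 ± 9.10 against 12.7 ± 3.58 CPM (1.10, SE 0.35, adjusted p = 0.581). The small SD of Tfpi, 52.6 ± 2.09 CPM in SAT and 82.1 ± 4.37 CPM in VAT, went with a log2 change of only -0.64 (SE 0.20, adjusted p = 0.576). Tfpi2 had a log2 change of 0.66 (SE 0.26, adjusted p = 0.733). The remaining 4 genes had adjusted p = 1, and for F3 the sign of the depot change turned with the setting: it was 0.38 (SE 1.55) with all libraries, -5.50 without SAT library 1, and with all libraries -1.87 in limma-voom and -2.27 where the library number was blocked. The Thbd change was -0.53 (SE 0.69), and -2.02 without SAT library 2 and 0.18 without SAT library 1.

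Within VAT the gates are free of conflict, and CD26+CD142+ cells were set against CD26-CD142+ cells. F3 was 3.13-fold lower, at 99.0 CPM against 310 ± 96.9 CPM (SD, n = 2), a log2 change of -1.65 (SE 0.56, edgeR adjusted p = 0.246, and 0.0495 with DESeq2). Plat stood 1.70-fold above (0.77 on the log2 scale, SE 0.49, adjusted p = 0.949) and Procr 1.58-fold higher (0.66, SE 0.55, adjusted p = 1). Without VAT CD26-CD142+ library 1 the Procr change was 1.36, with no test. None of the 9 genes passed in this comparison, in which 1.6% of tested genes did. At unadjusted p under 0.05 there was 1 of the 9 and 8.38% of all genes. With DESeq2 there was 1 (F3) and 2.24% of all genes, and with limma-voom 0 of the 9. Both gates require the product of F3, which limits F3 here to a description. The 9 log2 changes had a median of -0.02 and that of all tested genes was -0.03. Thbd (0.01, SE 0.55), Tfpi (-0.07, SE 0.47) and Plaur (-0.02, SE 0.51) had changes near 0 and SEs that do not exclude a change of that size in either direction.

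**Figure D2:**
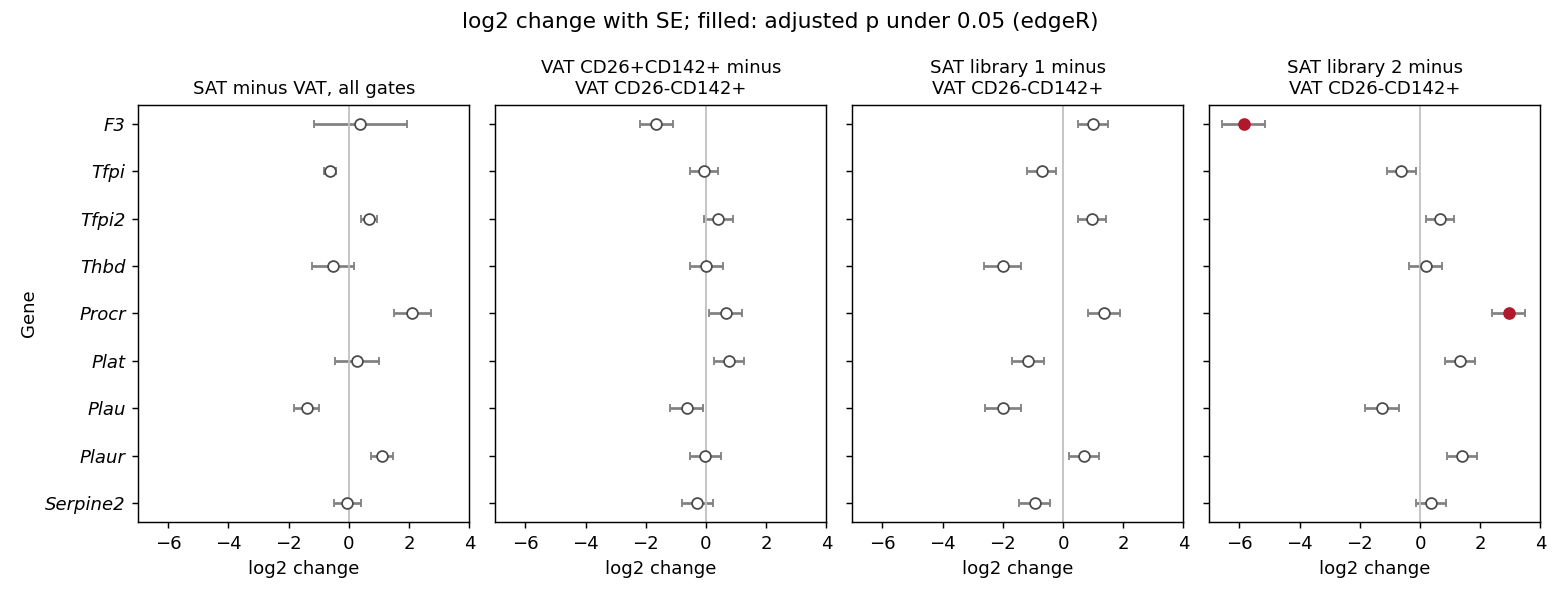
log2 change (x axis) of the 9 genes in 4 comparisons with edgeR; bars are the SE and filled points passed at an adjusted p of 0.05. In the right panel F3 (-5.86) and Procr (2.94) are filled, and all other points are open. F3 encodes the sort marker CD142, so its points describe the gates.

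CD142+ cells of the 2 depots can be compared in 2 ways, because the SAT labels conflict; both use the same pair of VAT CD26-CD142+ libraries, so they are not independent. With the SAT library named CD142 (library 1), F3 was 2.0-fold higher in SAT (log2 change 1.00, SE 0.50, adjusted p = 0.598). Thbd was 4.02-fold lower in SAT library 1, at 162 CPM against 652 ± 282 CPM (SD, n = 2) (-2.01, SE 0.61, adjusted p = 0.140), and Plau 3.98-fold lower, at 311 against 1237 ± 201 CPM (-1.99, SE 0.59, adjusted p = 0.120). Plat was 2.25-fold lower (-1.17, SE 0.53, adjusted p = 0.493) and Procr 2.57-fold higher (1.36, SE 0.54, adjusted p = 0.370; 2.07 without VAT CD26-CD142+ library 1, untested). None of the 9 passed with edgeR, by which 2.36% of genes were called. At unadjusted p under 0.05 there were 4 of the 9 and 9.38% of all genes. With DESeq2, Thbd (adjusted p = 0.00914) and Plau (adjusted p = 0.00207) passed, as did 2.84% of all genes, and with limma-voom 0 of the 9 did.

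With the SAT library titled CD26-CD142+ (library 2), F3 fell and Procr rose, and 6.48% of all tested genes were called, 2.8% higher and 3.68% lower. F3 was 58.2-fold lower in SAT, at 5.32 CPM against 310 ± 96.9 CPM (log2 change -5.86, SE 0.72, edgeR adjusted p = 7.93e-05), in a library whose title gives the cells as positive for the F3 product. Procr was 7.70-fold higher, at 888 against 115 ± 62.7 CPM (2.94, SE 0.55, adjusted p = 0.00306). The Procr change was 3.64 without VAT CD26-CD142+ library 1, where there is no test. Dpp4 was at 1006 CPM in SAT library 2 and at 5.13 and 6.57 CPM in the VAT pair. Depot and Dpp4 level thus cannot be told apart for Procr in this comparison. F3 encodes the sort marker CD142, which limits its change here to a description of the gates. Plaur (1.40, SE 0.49, adjusted p = 0.127), Plat (1.33, SE 0.49, adjusted p = 0.151) and Plau (-1.28, SE 0.57, adjusted p = 0.292) did not pass. Beside the value from library 1, the Thbd change was 0.19 (SE 0.55, adjusted p = 0.979) here.

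The 2 SAT libraries were set against each other without a test, as there is 1 library a side. Library 2, with high Dpp4, was at least 2-fold above library 1 for Thbd (4.58-fold, counting interval 4.42 to 4.75), Procr (3.001-fold, 2.92 to 3.09), Plat (5.66-fold) and Serpine2 (2.47-fold, 2.38 to 2.57), and at least 2-fold below it for F3. That is 5 of 9 genes, and 13.6% of all tested genes were this far apart, 6.78% higher and 6.79% lower. Plau (1.64-fold) and Plaur (1.62-fold) were above, Tfpi2 (0.812-fold) below and Tfpi level with library 1 by smaller amounts. The median of the 9 differences was 0.71 on the log2(CPM + 1) scale, and that of all tested genes -0.01.

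The test of whether the gate change differs between depots gave F3 by either reading. By library name, F3 changed by -6.86 on the log2 scale in SAT and by -1.65 in VAT between the CD26 and the CD142 gate (difference -5.21, SE 0.83, edgeR adjusted p = 0.0109); 0.251% of genes were called. The VAT gate change is between cells that were all sorted as CD142+, and the SAT change is not, so the gates set against each other are not the same in the 2 depots. By title the SAT change is turned round, and F3 (8.50, SE 0.94, adjusted p = 4.73e-05) and Plat (-3.27, SE 0.77, adjusted p = 0.0165) passed, with 6.61% of genes called. By name the difference for Plat was 1.74 (SE 0.78, adjusted p = 1), and Thbd (2.18, SE 0.87, adjusted p = 0.839) and Serpine2 (1.59, SE 0.77, adjusted p = 1) did not pass.

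Levels of different genes were compared per length, as TPM, the share of reads after division by the deposited gene lengths. Plau led in each VAT library, at 1617, 1509 and 1230 TPM. F3 led in SAT library 1, at 635 TPM, and Procr in SAT library 2, at 1469 TPM, where F3 came last of the 9 at 7.07 TPM. Plaur was the lowest of the 9 in the other 4 libraries, between 9.71 and 20.6 TPM. Over the 5 libraries the means ran from 1084 ± 540 TPM (SD, n = 5) for Plau, through 503 ± 268 TPM for Thbd, 502 ± 551 TPM for Procr, 302 ± 243 TPM for F3, 189 ± 126 TPM for Plat and 102 ± 36.9 TPM for Serpine2, to 40.5 ± 11.6 TPM for Tfpi, 38.3 ± 10.6 TPM for Tfpi2 and 22.3 ± 12.5 TPM for Plaur. The gap between neighbours in this order was larger than the SD of both genes for Plau against Thbd, Serpine2 against Tfpi and Tfpi2 against Plaur. For Plat against Serpine2 it was larger than the SD of Serpine2 and smaller than that of Plat, and the other neighbours differed by less than the SD of either gene.

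Ratios of 2 genes within a library do not depend on the scaling between libraries. They were formed per base of gene length, for pairs chosen after the counts had been seen, and are a description without a test. F3 per Tfpi, the initiator over its inhibitor, was 26.1 (counting interval 24.6 to 27.7) in SAT library 1 and 0.212 (0.174 to 0.257) in SAT library 2. It was 9.39 and 6.54 in VAT CD26-CD142+ cells and 2.70 in the VAT CD26+CD142+ library. SAT library 2 was the 1 library with less F3 than Tfpi.

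The next 3 ratios did not overlap between the depots. For Tfpi per Tfpi2 and Plau per Plaur this follows from the levels above, where the genes of each pair lay on opposite sides by depot. The share of other pairs of genes that part the depots was not computed. Tfpi per Tfpi2 was 0.537 and 0.700 in SAT libraries 1 and 2 and between 1.21 and 1.97 in VAT, so Tfpi2 was the more abundant inhibitor RNA in SAT and Tfpi in VAT. Procr per Thbd was 3.34 and 2.19 in SAT against 0.647, 0.153 and 0.508 in VAT, in the same order of libraries as above. Plau per Plaur was 16.5 and 16.8 in SAT libraries 1 and 2 and 166, 74.2 and 69.9 in VAT. The SAT pair agreed here within counting error (15.1 to 18.2 and 15.6 to 18.1). Plat per Plau did not split by depot: it was 0.146 and 0.503 in SAT libraries 1 and 2, 0.0723 and 0.0956 in VAT CD26-CD142+ cells and 0.218 in the VAT CD26+CD142+ library. Urokinase RNA exceeded tissue-type activator RNA in each library.

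**Figure D3:**
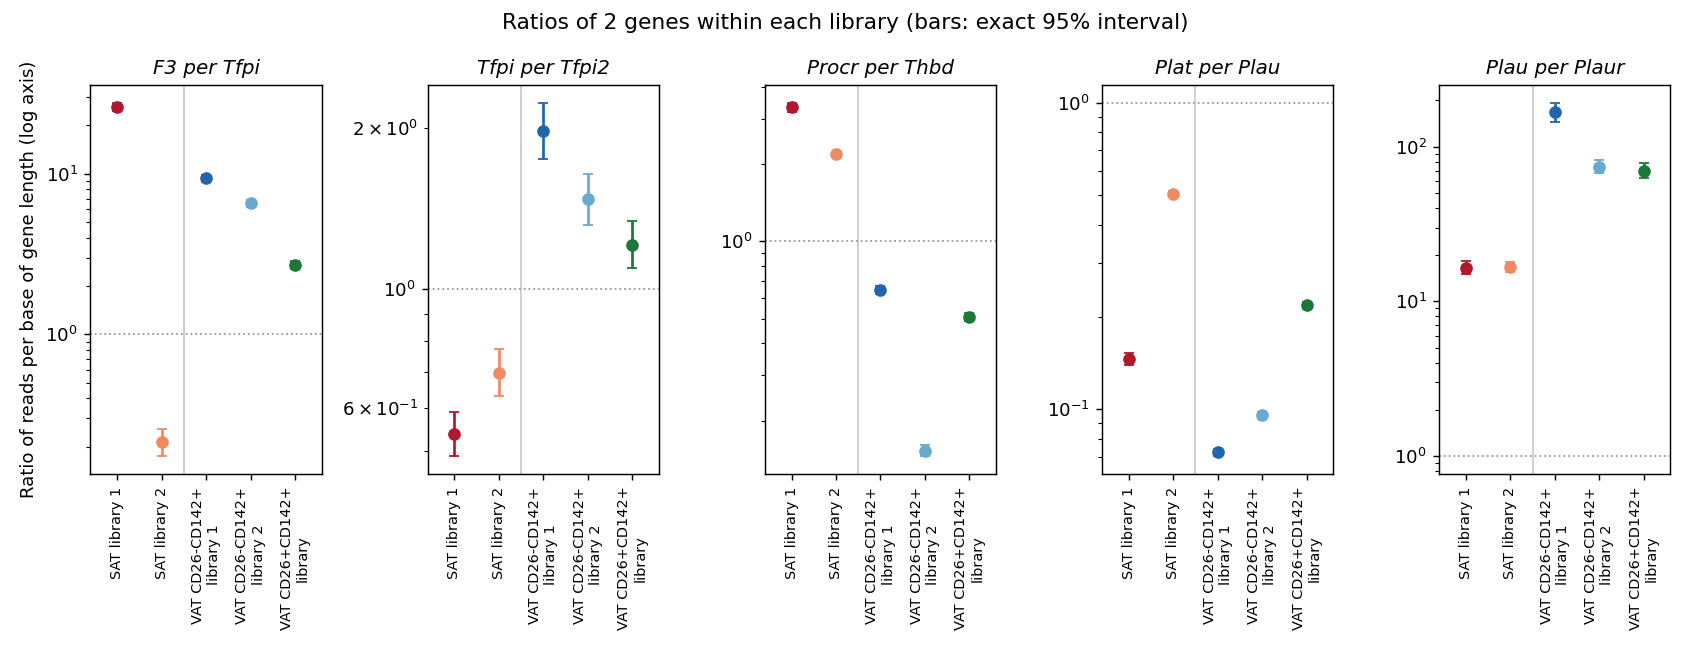
Ratio of reads per base (log axis) for 5 pairs of genes in the 5 libraries; bars are exact 95% intervals and the dotted line is a ratio of 1. Tfpi per Tfpi2 and Procr per Thbd lie on opposite sides of 1 in SAT and VAT, and F3 per Tfpi falls below 1 in SAT library 2 (0.212).

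The genes nearest to a member were taken by the root mean square difference of log2(CPM + 1), centred per gene, over 5 libraries and among 8846 protein-coding genes of at least 10 CPM on average. The 5 nearest to F3 were Mfap4 (0.57), a microfibril gene, the matrix Gla protein gene Mgp (0.66), the carboxypeptidase gene Cpe (0.72), the claudin gene Cldn15 (0.73) and Sparcl1 (0.74), a matricellular gene. In all 5, SAT library 2 was the lowest and the VAT CD26+CD142+ library the next lowest. Mgp was at 687 and 3.70 CPM in SAT libraries 1 and 2, 820 and 623 CPM in the VAT CD26-CD142+ libraries and 183 CPM in the VAT CD26+CD142+ library. For Procr the nearest were the interferon-induced genes Ifit1 (0.26) and Usp18 (0.26), then the alarmin gene Il33 (0.27), Rab38 (0.37) and Marcks (0.37). For Thbd they were Ppp1r9a (0.15), Zyx (0.19), Rtn4rl2 (0.25), Abca6 (0.25) and Vegfd (0.26), and for Plat they were Nova1 (0.18), Rassf5 (0.21), Slc16a9 (0.22), Zfp462 (0.23) and Pde10a (0.24). Among the 9 genes themselves the nearest pairs were Tfpi2 with Plaur (0.41), Tfpi with Serpine2 (0.45), Tfpi with Plau (0.48) and Thbd with Plat (0.51). Levels were not scaled to the spread of each gene, so genes that vary little can lie near each other without a shared order of libraries. Tfpi and Serpine2 are such a pair, as Tfpi parted the depots and Serpine2 did not. These distances are a description without a test.

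**Figure D4:**
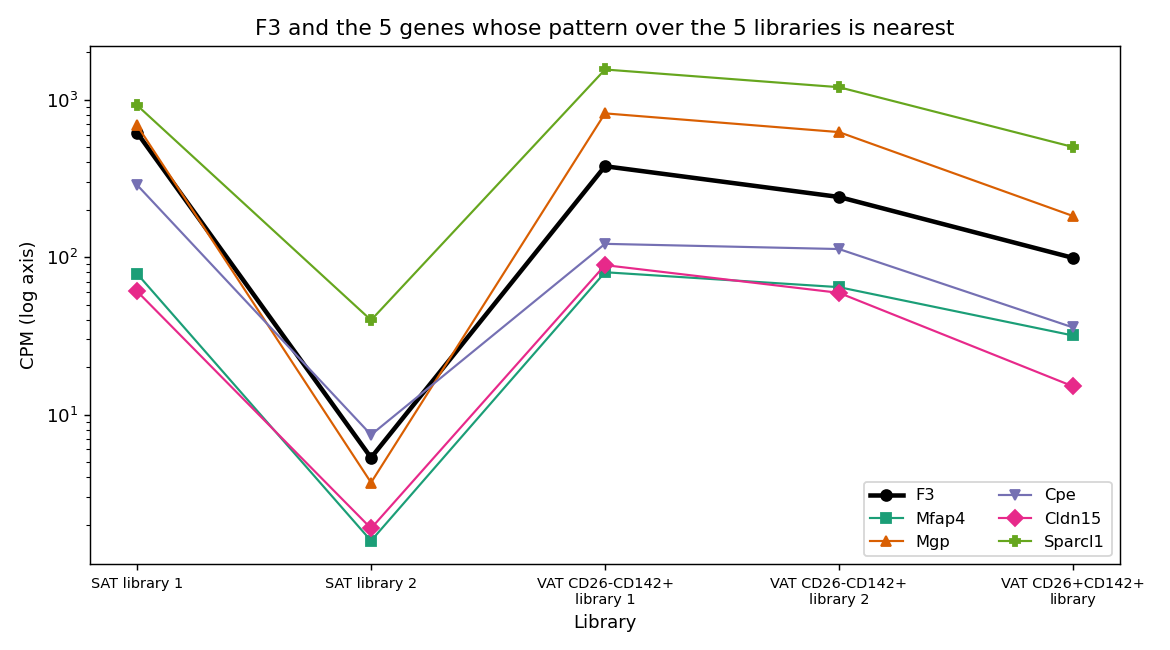
CPM (log axis) of F3 and of the 5 genes with the nearest pattern in each library; lines join the values of a gene and carry no order of time. All 6 genes are lowest in SAT library 2, where F3 is at 5.32 CPM.

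A wider list of 43 coagulation and fibrinolysis genes was read beside the 9, of which 33 passed the filter. Between depots 0 of 33 passed with edgeR, with a median log2 change of 0.13. In VAT CD26+CD142+ against CD26-CD142+ cells 1 of 33 passed, Vtn, which encodes vitronectin, a ligand of the urokinase receptor. It was at 19.9 CPM against 270 and 115 CPM (log2 change -3.28, SE 0.65, adjusted p = 0.0198). Of all tested genes 0.0503% were called between depots and 1.6% in this VAT comparison. With SAT library 1 against the VAT CD26-CD142+ pair 0 of 33 passed, and 2.36% of all tested genes did. With SAT library 2, where 6.48% of all tested genes were called (2.8% higher and 3.68% lower), 1 of 33 was higher and 5 were lower. The higher gene was Serpinb2, plasminogen activator inhibitor 2, at 7.34 CPM (5.19, SE 1.18, adjusted p = 0.0219). The 5 lower were F2r, Vtn, F5, Kng1 and Anxa5, and Kng1 had 0 counts in SAT library 2.

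F2r, the main thrombin receptor of the protease-activated family, was at 16.9 and 1.35 CPM in SAT libraries 1 and 2, 32.3 and 45.8 CPM in the VAT CD26-CD142+ libraries and 25.2 CPM in the VAT CD26+CD142+ library. In SAT library 2 it was lower by 4.85 on the log2 scale (log2 change -4.85, SE 0.65, adjusted p = 1.88e-04), so this library held little RNA of either tissue factor or the thrombin receptor. Genes of the plasminogen surface receptors were abundant in all libraries, with Anxa2 at 408 to 977 CPM and S100a10 at 596 to 1042 CPM. Plg itself, the plasminogen gene, was at 0 to 1.86 CPM, and F7, the partner of tissue factor, at 0 to 0.562 CPM.

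Genes of the plasma proteins fibrinogen and antithrombin were highest in the libraries numbered 1. Fgg, a fibrinogen chain gene, was at 22.4 and 4.21 CPM in the libraries numbered 1 (SAT and VAT CD26-CD142+) and at 0.0412 to 0.559 CPM in the 3 numbered 2. Fgb (17.5 and 3.53 CPM against 0.215 to 0.329 CPM) and Serpinc1, the antithrombin gene (3.98 and 2.61 CPM against 0 to 0.258 CPM), split in the same way, as did the mitochondrial share given above. Kng1, named above as lower in SAT library 2, was also highest in the libraries numbered 1. It was at 5.40 and 2.43 CPM there and at 0 to 0.559 CPM in those numbered 2. The part of these splits in the levels of the 9 genes was not tested.

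Markers of other cells that carry thrombomodulin, the protein C receptor and plasminogen activators were read beside them. The 12 endothelial markers summed to 334 CPM in SAT library 2 and 313 CPM in the VAT CD26+CD142+ library, against 41.7 CPM in SAT library 1 and 81.7 and 79.1 CPM in the VAT CD26-CD142+ libraries. Most of this was Tek, at 290 and 286 CPM in the first 2 of these libraries. The other 11 endothelial markers summed to 44.0 CPM in SAT library 2 and 12.5 to 26.7 CPM elsewhere, and Cdh5, a defining gene of endothelium, was at 1.16 to 5.54 CPM. None of the 12 was at 0 in any library. The part of endothelial RNA in Thbd, Procr and Plat was not tested.

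The 12 mesothelial markers summed to 374 CPM in the VAT CD26+CD142+ library, 116 and 172 CPM in the VAT CD26-CD142+ libraries, and 174 and 4.64 CPM in SAT libraries 1 and 2. In VAT CD26+CD142+ against CD26-CD142+ cells 11 of the 12 had a log2 change above 0. With edgeR 5 of the 12 passed as higher, and 1.6% of all tested genes were called in either direction. Msln, the mesothelin gene, was at 38.5 CPM in the VAT CD26+CD142+ library, 0.779 and 2.41 CPM in the VAT CD26-CD142+ libraries and 0 in both SAT libraries, and Wt1 was at 112 to 154 CPM in VAT and at 0 and 0.0451 CPM in SAT. In SAT library 1 the sum came from keratin genes (Krt19 at 63.7 CPM), and the epithelial gene Epcam was at 25.2 CPM there and at 0 to 0.0859 CPM elsewhere. The 9 epithelial markers, which share keratins with the mesothelial list, summed to 208 CPM in SAT library 1 and 1.37 to 38.9 CPM elsewhere. In SAT library 1 Csn3 was at 17.0 CPM and Cdh1 at 9.59 CPM, whereas Krt5, Krt14 and Krt15 were at 0 to 0.302 CPM. Of the 12 mesothelial markers, SAT library 1 had 3 at 0, SAT library 2 had 6 and the VAT CD26-CD142+ library numbered 1 had 4. The part of these cells in the 9 genes was not tested. Macrophage markers summed to 29.3 to 61.8 CPM over 12 genes, lymphocyte markers to 0.406 to 1.90 CPM over 10 (Cd3e was at 0 in all but the VAT CD26+CD142+ library), mural markers to 54.9 to 221 CPM over 8, and platelet markers to 8.72 to 35.2 CPM over 5. Of the platelet markers Itga2b was at 7.51 to 34.9 CPM, and the defining genes Pf4 and Ppbp were at 0.172 to 1.05 CPM and 0 to 0.229 CPM.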

How the data were processed

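The authors deposited 1 table with the raw counts of 5 libraries for each Ensembl gene and, as another unit, the gene length in bases. Per the submitters' processing notes, the tools were featureCounts 1.5.0-p3, HISAT2 2.0.5 and CASAVA, and the build mm10; the annotation release and strand setting are not given in the sources used here. The filter filterByExpr (group: depot; minimum count: 10) left 15920 of 54532 genes. Counts were scaled by TMM and tested in edgeR 4.0.16 (R 4.3.3) with robust quasi-likelihood F tests, adjusted over all tested genes at 0.05. Depot had 3 residual degrees of freedom. The other contrasts used a fit of 4 groups with 1, in which each lone library is assumed to vary like the VAT CD26-CD142+ pair. limma 3.58.1, DESeq2 1.42.0 and other filters and scalings were alternatives. The pipeline was tested on simulated data.

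Intervals are exact at 95% and cover counting error only; without molecular identifiers, reads do not stand for separate molecules. Between the 2 SAT libraries, a gene was counted where log2(CPM + 1) differed by 1 or more and the higher library reached 10 CPM. Groups follow titles, and SAT contrasts were run by title and by library name. The 9 genes and the lists were chosen with earlier results of these data known. Named genes are the 9, genes of the lists, and the 5 nearest in pattern. Genes near to Tfpi, Tfpi2, Plau, Plaur and Serpine2 are left out of the text.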

Additional observations from a re-analysis of the deposited data

Results flagged for a closer look

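For F3 the gate change differed between depots by the interaction test, by -5.21 on the log2 scale with SAT gates by name (edgeR adjusted p = 0.0109) and by 8.50 with SAT gates by title (adjusted p = 4.73e-05). F3 is the gene of a sort marker, so this describes the gates. In each depot the library with high Dpp4 had the most Plat RNA. Reading the SAT gates by title turns the SAT change for Plat to -2.50, beside 0.77 in VAT. F3 and Dpp4 levels followed the SAT names and not these titles. For Plat the gate change differed by -3.27 with SAT gates by title (adjusted p = 0.0165). By name the Plat difference was 1.74 and did not pass (adjusted p = 1).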

How the results depend on the processing

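The fits had 1 to 3 residual degrees of freedom, and the effect of depth was not tested. Of 558 values of the 9 genes under alternatives, 530 kept their direction and, where there was a test, their side of the threshold. Of the rest, 7 newly passed, 18 reversed and, among values left without a test, 3 moved by more than the SE. Values without a test counted as kept if they moved by less than the SE or, between the 2 SAT libraries, by less than counting error. Those that newly passed were the 5 DESeq2 calls given in the report and, with no filter, Thbd (adjusted p = 0.0349) and Plau (adjusted p = 0.0432) in SAT library 1 against the VAT pair (edgeR). The 3 that moved were Procr without VAT CD26-CD142+ library 1, at 1.36 for VAT CD26+CD142+ cells and 2.07 and 3.64 for SAT libraries 1 and 2. In the depot comparison 8 genes were called, but 70 with no filter, 465 with DESeq2, 0 with limma-voom (963 at unadjusted p under 0.05), 0 (any VAT library left out) to 17 (SAT library 1 left out) with edgeR (933, 578 and 1005 at unadjusted p under 0.05 for the 0s) and 0 in the libraries numbered 2 alone, chosen after seeing the data (1439). With the number as a replicate block 5 were called, and the labels do not say that the number pairs libraries. The difference between numbers 1 and 2 in SAT and that in VAT CD26-CD142+ cells correlated over genes (r = 0.483). In SAT these numbers also part the gates, so number and gate cannot be told apart there. With no filter there were 491 in place of 254 in VAT CD26+CD142+ against CD26-CD142+ cells, 727 in place of 375 for SAT library 1, 181 in place of 40 for the difference between gate changes by name and 1621 in place of 1053 by title. For the difference by name DESeq2 gave 85 and limma-voom 10. Leaving out a library gave 356 to 383 (SAT library 1 left out) for VAT CD26+CD142+ and 332 to 580 (SAT library 2 left out) for SAT library 1. Without a VAT CD26-CD142+ library the fit of 4 groups has no test, and it has no residual degree of freedom for the block.

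Depot changes that reversed were, for F3, -1.87 with limma-voom, -2.27 with the block, -5.00 in the libraries numbered 2 and -5.50 to 1.36 on leaving out a library (negative without SAT library 1); for Plat, -0.17 with limma-voom and -1.49 (without SAT library 2) to 1.02; for Thbd, -2.02 to 0.18 (without SAT library 1); and for Serpine2, 0.57 in the libraries numbered 2 and -0.86 to 0.45 (without SAT library 1; 0.07 where VAT CD26-CD142+ library 1 was left out). In VAT CD26+CD142+ against CD26-CD142+ cells, Plaur was 0.039 with limma-voom and 0.47 on leaving out library 2, and Thbd was -0.37 on leaving out library 1 and 0.55 on leaving out library 2. In SAT library 2 against the VAT pair, Thbd was -0.20 and 0.71 on leaving out library 1 or 2 of that pair. For the difference by title, Tfpi was 0.003 with the filter of 5 CPM. Leaving out VAT CD26-CD142+ library 1 or 2 gave -0.06 and 0.042 for Tfpi, 0.042 and -0.28 for Tfpi2, and -0.24 and 0.065 for Plau. None of the reversed changes had passed. The cause was not tested.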
